A study of Mus musculus with 46 samples.

Results

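Transcripts of 9 C-type lectin receptor genes of myeloid cells were measured by RNA sequencing in 46 AB1-HA tumors. The genes were listed by name, with earlier results of these data known but with no threshold on a measured value, as Clec4a1, Clec4a2, Clec4a3, Clec4d, Clec4e, Clec4n, Clec5a, Clec7a and Clec12a, and they are 9 of the 46011 complete entries of the table of counts. AB1-HA is a murine mesothelioma line, grown here as bilateral subcutaneous tumors in male BALB/c mice aged 8-10 weeks. Every mouse received cyclophosphamide (CY), an alkylating chemotherapy, at 200 mg/kg on day 10 after inoculation, and the tumor left in place after surgery showed whether the mouse was a complete responder (CR) or not (PR, which the labels call a partial responder and the study a progressor). The groups were CR at Day-1 (13 tumors), PR at Day-1 (13 tumors), CR at Day+3 (5 tumors), PR at Day+3 (5 tumors), CR at Day+7 (5 tumors) and PR at Day+7 (5 tumors). Day-1, Day+3 and Day+7 count from CY and fall on days 9, 13 and 17 after inoculation. Day-1 tumors had not been exposed to CY when they were resected. No mouse gave more than 1 sequenced tumor, and the response was read from the other tumor of the same mouse.

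C-type lectin receptors are surface proteins with which macrophages, monocytes, neutrophils and dendritic cells recognise glycans, glycolipids and molecules released by dying cells. Dectin-1 (Clec7a), the β-glucan receptor, signals through the kinase SYK and the adaptor CARD9. Dectin-2 (Clec4n), Mincle (Clec4e) and MCL (Clec4d) signal through the Fc receptor γ chain (Fcer1g), and MDL-1 (Clec5a) through DAP12 and DAP10 (Hcst), whereas DCIR (Clec4a2) and MICL (Clec12a) carry an inhibitory motif in their cytoplasmic tails. Clec4a1 and Clec4a3 encode DCIR4 and DCIR3, mouse relatives of DCIR.

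All 9 genes lie on mouse chromosome 6 (GRCm38, GENCODE M21). Clec4a1, Clec4a3, Clec4a2, Clec4n, Clec4d and Clec4e form a cluster from position 122921848, the start of Clec4a1, to position 123289870, the far end of Clec4e. Clec12a (chr6:129342691-129365303) and Clec7a (chr6:129461591-129472779) are neighbours in another cluster, and Clec5a (chr6:40574894-40585821) lies apart. Clec7a is annotated there as a polymorphic pseudogene and the other 8 as protein-coding. Reads of this kind can be divided between close relatives: 6.83% of the 50-base words in Clec4a2 transcripts also occur in other genes, among them Clec4a4 and Clec4b1, against 0.686% for Clec4n, 0.457% for Clec12a and 0 for the other 6. Of the 31-base words, the length kallisto uses by default, the shared part was 10.9% for Clec4a2, 2.19% for Clec4a3, 1.96% for Clec4n, 1.12% for Clec12a, 0.638% for Clec7a, 0.0992% for Clec4e and 0 for the other 3. The Clec4a2 counts are the least certain of the 9 by this measure, and the labels and the methods of the study give different read lengths. RefSeq promoters (GRCm38.p6) were matched for 8 of the 9 genes, and the first window listed for each gene was used. The hexamer GAGGAA, a core of the sites bound by PU.1, the ETS factor of the myeloid lineage, was searched on both strands of the 250 bases before the start site. It was in 6 of these 8 windows and in 23.1% of all 27025 promoter windows of this length. Over every listed window of a gene it was in 7 of 8, with Clec4a3 added, and in 25.9% of genes. Windows are shown for the genes whose patterns differ most in the results, in the direction of transcription, with GAGGAA or its reverse complement TTCCTC in capitals. Clec7a is at chr6:129472780-129473029 and Clec4e at chr6:123289872-123290121, both on the minus strand. Clec12a is at chr6:129349994-129350243 and Clec4a2 at chr6:123122440-123122689, both on the plus strand, and these 2 windows lie inside the spans that GENCODE gives the genes. The Clec4a2 window lies before the RefSeq span of the gene, which begins at 123122690. The RefSeq span of Clec12a begins at 129349783, before its window, so the start that follows this window lies inside the gene in both annotations.
Clec7a: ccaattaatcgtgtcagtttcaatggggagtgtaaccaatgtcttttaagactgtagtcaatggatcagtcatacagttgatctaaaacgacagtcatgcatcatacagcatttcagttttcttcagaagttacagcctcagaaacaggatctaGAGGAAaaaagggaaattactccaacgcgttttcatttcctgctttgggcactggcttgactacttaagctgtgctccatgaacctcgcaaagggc
Clec4e: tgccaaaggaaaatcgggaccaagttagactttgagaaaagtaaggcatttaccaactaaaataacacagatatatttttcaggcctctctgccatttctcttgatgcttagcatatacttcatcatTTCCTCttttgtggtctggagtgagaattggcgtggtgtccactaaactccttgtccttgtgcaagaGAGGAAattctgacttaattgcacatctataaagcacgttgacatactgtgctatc
Clec12a: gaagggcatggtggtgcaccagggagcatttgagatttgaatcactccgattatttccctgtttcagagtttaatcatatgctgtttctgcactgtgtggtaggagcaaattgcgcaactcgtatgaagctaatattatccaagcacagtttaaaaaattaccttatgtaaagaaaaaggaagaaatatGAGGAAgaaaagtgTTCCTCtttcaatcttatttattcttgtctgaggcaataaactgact
Clec4a2: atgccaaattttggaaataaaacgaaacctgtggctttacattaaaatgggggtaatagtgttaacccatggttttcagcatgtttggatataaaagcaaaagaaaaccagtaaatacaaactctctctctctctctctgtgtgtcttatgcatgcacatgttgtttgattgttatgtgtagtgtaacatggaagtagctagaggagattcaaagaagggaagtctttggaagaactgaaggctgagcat
The hexamer began 96 bases before the Clec7a start, 123 and 56 bases before the Clec4e start and 61 and 47 bases before the start inside Clec12a, and these letters are not in the Clec4a2 window. TTGCNNAA, a form of the C/EBP motif, was in the Clec4e and Clec12a windows, 2 of 8 against 9.55% of all windows, and did not overlap the hexamer. A form of the NF-κB motif was in 1 of 8 (Clec4a1; 17.3% of all windows), the AP-1 form TGANTCA in 1 of 8 (Clec12a; 6.87%), and neither a form of the interferon-response motif (3.04%) nor TCACGTG (3.15%) was in any of the 8. Each is a match of letters, and binding was not measured.

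The covered counts summed to 10227681 to 14218987 per tumor at Day-1, 15412744 to 18748688 at Day+3 and 16047930 to 19446596 at Day+7, so time after CY, tumor age and depth cannot be told apart. Values are given as CPM, the share of a gene in the covered counts of a tumor after TMM scaling, which corrects for differences in RNA composition. The tumors expressed the mesothelial gene Msln at 284 to 581 CPM at Day-1, 292 to 439 CPM at Day+3 and 51.0 to 127 CPM at Day+7, whereas the mesothelial genes Krt18, Krt19, Lrrn4 and Gpm6a stayed under 1 CPM in every tumor, and Krt8 had 3.15 to 28.4 CPM at Day-1, 5.65 to 91.9 CPM at Day+3 and 0.064 to 4.55 CPM at Day+7. The keratinocyte gene Krt5 was above 10 CPM in 16 of 46 tumors. All 9 receptor genes passed the filter on low counts in every comparison. In whole tumors, fewer cells of a type and less RNA per cell cannot be told apart.

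**Figure D1:**
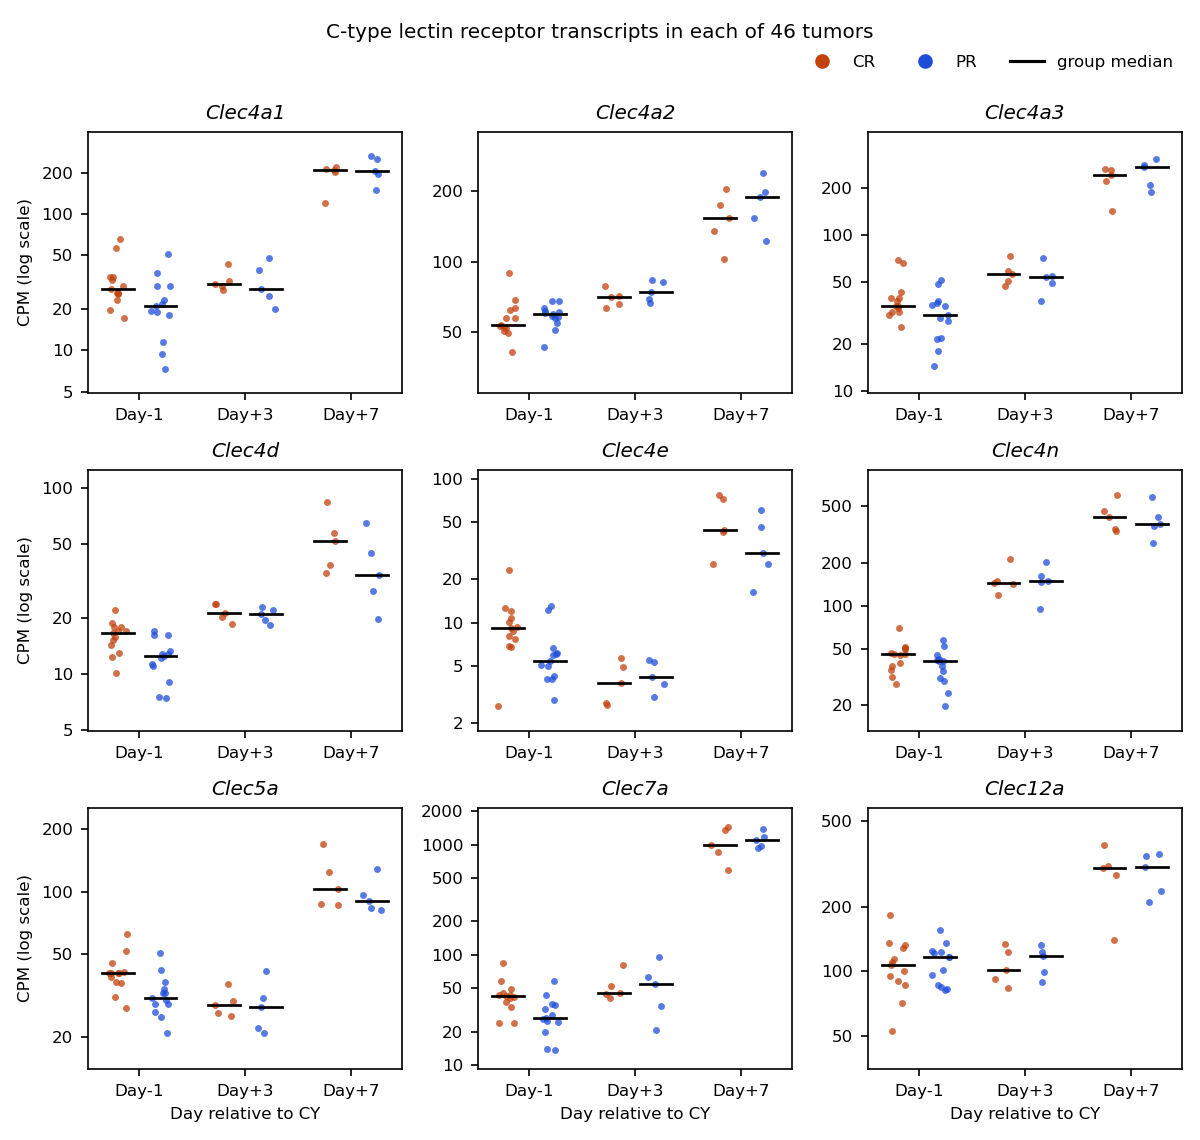
Level of each of the 9 receptor genes in each tumor (y axis, CPM on a log scale) at Day-1, Day+3 and Day+7 (x axis), CR tumors left and PR tumors right, with a bar at the group median. All 9 genes had their highest medians at Day+7, with Clec7a between 584 and 1442 CPM. Clec4e and Clec5a had their lowest CR and PR medians at Day+3.

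Before treatment, Clec12a was the most abundant of the 9 transcripts per length and Clec4e the least. Per kilobase of the longest transcript, the median level over the 26 Day-1 tumors was 33.6 CPM per kb for Clec12a, 29.4 for Clec4n, 26.9 for Clec4a3, 23.3 for Clec4a2, 16.8 for Clec4a1, 15.6 for Clec7a, 10.5 for Clec4d, 9.73 for Clec5a and 1.42 CPM per kb for Clec4e. The ranges of neighbouring genes in this order overlapped, except that the highest Clec4e value (4.85 CPM per kb) was below the lowest Clec5a value (5.57 CPM per kb). With the median transcript length in place of the longest, Clec12a was still first and Clec4e last, and Clec4a2 moved to second place at 62.9 CPM per kb. At Day+3 Clec4n led with a median of 106 CPM per kb, and at Day+7 Clec7a led with 457 CPM per kb, with either length.

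After CY every one of the 9 genes rose. All 9 were higher at Day+7 than at Day-1, by 1.40 (Clec12a) to 4.91 (Clec7a) on the log2 scale, with a median of 2.45 (edgeR quasi-likelihood test, CR and PR weighted equally, adjusted p from 6.11e-28 to 5.75e-14). This has to be read against 85.9% of all 13194 genes tested passing the same threshold (FDR under 0.1), 43% of all genes higher and 42.8% lower, and a median change over all genes of -0.003. TMM scaling centres most genes near 0, so that median largely reflects the scaling. Of the 9, 6 did not overlap between Day+7 and Day-1 tumors, each higher at Day+7, which was so for 19.8% of all genes tested. The sum of 13 leukocyte genes had a median of 8862 CPM at Day+7 (5497 to 9854) and 2112 CPM at Day-1 (1599 to 2891), that of 14 macrophage genes 15751 CPM (13643 to 17535) and 3741 CPM (2249 to 5898), and that of 6 monocyte genes 2081 CPM (1727 to 2469) and 412 CPM (160.2 to 741). All of these marker genes passed the test as higher at Day+7, and their part in the rise of the receptors was examined only by scaling to leukocyte and macrophage genes.

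Clec7a, which encodes Dectin-1, rose most. It had 584 to 1442 CPM at Day+7 (median 1041, 10 tumors), against 13.7 to 84.0 CPM at Day-1 (median 35.5, 26 tumors). Every Day+7 tumor was above every Day-1 tumor. The change was 4.91 on the log2 scale (SE 0.18), about a 30-fold difference, with an adjusted p of 6.11e-28 by edgeR. At Day+3 it had 20.5 to 94.6 CPM (median 48.3, 10 tumors), overlapping the Day-1 tumors. Its change from Day-1 was 0.56 (SE 0.19, adjusted p = 0.0064 by edgeR), so that most of the difference lay between Day+3 and Day+7, at 4.35 on the log2 scale (SE 0.25).

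Clec4n, which encodes Dectin-2, was the member whose 3 time points did not overlap at all. It had 19.8 to 70.2 CPM at Day-1 (median 41.3), 95.2 to 211 CPM at Day+3 (median 148) and 274 to 599 CPM at Day+7 (median 393). It rose by 1.88 on the log2 scale at Day+3 (SE 0.12), a 3.68-fold difference, and by 3.33 at Day+7 (SE 0.12), a 10.0-fold difference, both relative to Day-1, with adjusted p of 3.72e-18 and 6.83e-28 by edgeR. Of all genes tested, 12.2% were higher in every Day+3 tumor than in every Day-1 tumor, and Clec4n was the only one of the 9 that was.

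Clec4e, which encodes Mincle, fell before it rose. It had 2.63 to 23.3 CPM at Day-1 (median 6.83), 2.66 to 5.63 CPM at Day+3 (median 4.01) and 16.2 to 77.5 CPM at Day+7 (median 43.2). All 10 Day+3 tumors were below the Day-1 median, although the ranges overlapped, and all 10 Day+7 tumors were above every Day+3 tumor. The change at Day+3 relative to Day-1 was -0.90 on the log2 scale (SE 0.23, adjusted p = 0.000669 by edgeR), and that at Day+7 relative to Day+3 was 3.35 (SE 0.28), a 10.2-fold difference that was second to that of Clec7a among the 9. Relative to Day-1, Clec4e was 2.45 higher at Day+7 (SE 0.20).

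Clec5a, which encodes MDL-1, moved in the same directions with smaller sizes. It had 20.9 to 62.4 CPM at Day-1 (median 36.5), 20.9 to 41.3 CPM at Day+3 (median 28.1) and 81.7 to 169.6 CPM at Day+7 (median 93.7). Its change at Day+3 was -0.33 (SE 0.12, adjusted p = 0.0107 by edgeR), and it rose by 1.53 at Day+7 (SE 0.11), both relative to Day-1. The Day+3 decrease did not pass without the 16 tumors with Krt5, at -0.19 (adjusted p = 0.217 by edgeR). Of the 10 Day+3 tumors, 9 were below the Day-1 median, and all 10 Day+7 tumors were above every other tumor.

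Clec4a1, Clec4a3 and Clec4d, also of the cluster around Clec4a2, had positive log2 changes at both days, and Clec4a3 and Clec4d passed at Day+3. Clec4a3 rose by 0.64 at Day+3 (SE 0.14) and by 2.75 at Day+7 (SE 0.13), with medians of 34.9, 54.0 and 252 CPM at Day-1, Day+3 and Day+7. Clec4d, the partner of Mincle, rose by 0.59 at Day+3 (SE 0.13) and by 1.68 at Day+7 (SE 0.13), with medians of 13.9, 21.2 and 41.7 CPM. Clec4a1 was at 0.25 at Day+3 (SE 0.19, adjusted p = 0.247 by edgeR, and 0.36 with an adjusted p of 0.0726 without CR tumor 4 of Day-1) and rose by 2.90 at Day+7 (SE 0.18), with medians of 26.2, 30.3 and 207 CPM at Day-1, Day+3 and Day+7. At Day+7 a single tumor of 10 had Clec4d within the Day-1 range, a PR tumor at 19.8 CPM.

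The receptors with an inhibitory motif, Clec4a2 and Clec12a, had the smallest rises at Day+7 together with Clec5a. Clec4a2 had 41.0 to 89.2 CPM at Day-1 (median 57.8), 63.1 to 83.3 CPM at Day+3 (median 70.9) and 103 to 240.4 CPM at Day+7 (median 165). Clec12a had 52.4 to 182 CPM at Day-1 (median 109), 83.6 to 134 CPM at Day+3 (median 109) and 140.4 to 386 CPM at Day+7 (median 305). Relative to Day-1, Clec4a2 rose by 0.31 at Day+3 (SE 0.09) and by 1.52 at Day+7 (SE 0.08), and Clec12a was at 0.01 at Day+3 (SE 0.13, adjusted p = 0.952 by edgeR, and 0.26 with an adjusted p of 0.0534 without the tumors with Krt5) and rose by 1.40 at Day+7 (SE 0.13). No test of the differences between genes was made.

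At Day+3 as a whole, 5 of the 9 genes had risen (Clec4n, Clec4a3, Clec4d, Clec7a and Clec4a2), 2 had fallen (Clec4e and Clec5a) and 2 did not pass, against 77.6% of all genes passing, 37.9% higher and 39.6% lower. Without the 16 tumors with Krt5, 7 had risen and 1, Clec4e, had fallen, against 74.3% of genes passing. Between Day+3 and Day+7 all 9 rose, by 1.09 (Clec4d) to 4.35 (Clec7a), against 75.3% of all genes passing and 38.8% higher. Of the 9, 8 did not overlap between Day+7 and Day+3, each higher at Day+7, against 19.2% of all genes. The 2 comparisons with Day-1 use the same Day-1 tumors. The sum of the 14 macrophage genes was already higher at Day+3 (median 10824 CPM, 7709 to 12561) than at Day-1, all 14 passing the test, whereas the sum of the 6 monocyte genes had a median of 329 CPM (205 to 492), with 2 genes higher and 2 lower than at Day-1.

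**Figure D2:**
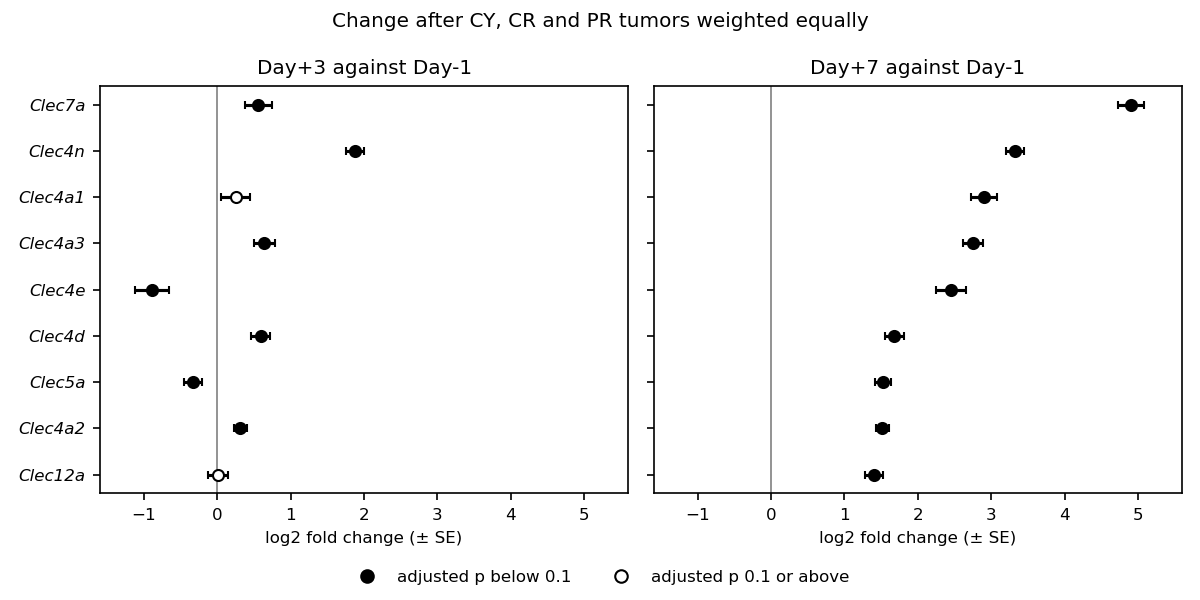
Log2 fold change of each receptor gene (x axis) at Day+3 and at Day+7 relative to Day-1, with standard errors, filled where the adjusted p was below 0.1. At Day+3 the changes ran from -0.90 (Clec4e) to 1.88 (Clec4n) with Clec4a1 and Clec12a unfilled, and at Day+7 all 9 were between 1.40 and 4.91.

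Scaling each tumor to its leukocyte or macrophage genes, in place of all genes, lowered the Day+7 changes of the receptors by similar amounts, so the sign of each follows from the size of its change with TMM scaling and is no separate result. Relative to the 13 leukocyte genes, Day+7 exceeded Day-1 for 5 of the 9 (Clec7a, Clec4n, Clec4a1, Clec4a3 and Clec4e) and was below it for 4 (Clec12a, Clec4a2, Clec5a and Clec4d), all past the threshold, under which 95.2% of all genes passed with a median over all genes of -1.89. Relative to the 14 macrophage genes the same 5 were higher and the same 4 lower, again with 95.2% of genes passing and a median over all genes of -2.005. Clec7a was 11.9% of the leukocyte sum at Day+7 (9.56 to 16.0%), against 1.66% at Day-1 (0.744 to 2.91%). Clec12a was 3.41% of that sum at Day+7 (2.37 to 4.29%), against 5.41% at Day-1 (2.74 to 7.34%). At Day+3 relative to the leukocyte genes, 4 were higher than at Day-1 and 2 lower (73.7% of genes passing), and relative to the macrophage genes Clec4n alone was higher, by 0.40, and 8 were lower (95% of genes passing, median over all genes -1.46). Between Day+3 and Day+7, 4 were higher and 4 lower relative to the leukocyte genes (93.8% of genes passing, median over all genes -1.67), and all 9 were higher relative to the macrophage genes (80.7% passing, median over all genes -0.54). Apoe made up 39.9% of the macrophage sum at Day+3 and 22.2% at Day-1, the largest share of any gene in that sum.

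The neighbouring pathway genes were higher at Day+7, as were marker genes of several leukocyte types. The median log2 change from Day-1 was 2.02 for leukocyte genes, 1.9 for T cell genes and 2.34 for natural killer cell genes, with every tested gene higher. It was 1.21 for B cell genes, 3 higher and 1 lower. A link between the pathway genes and the receptors was not tested. Of 20 genes for adaptors, kinases and the CARD9 pathway, 13 were in the table, and all 13 were higher at Day+7 than at Day-1 (median 1.64, against -0.003 over all genes, of which 43% were higher and 42.8% lower). The 3 with the smallest p were Fgr, a SRC-family kinase, at 3.00 (SE 0.10), Card9 at 2.18 (SE 0.08) and Fcer1g, the shared γ chain, at 2.47 (SE 0.09). At Day+3 the same list was divided, 5 higher and 4 lower (37.9% and 39.6% of all genes), with Lsp1 at 0.98 (SE 0.05) and the CARD9 partner Malt1 at -1.30 (SE 0.08). Of 18 cytokines and enzymes induced through these receptors, 16 were tested, and 14 were higher at Day+7 and 0 lower (median 3.13, against 43% and 42.8% of all genes), with the smallest p for the transcription factor Egr2 at 3.19 (SE 0.08), the chemokine Ccl2 at 3.59 (SE 0.13) and Csf2, which encodes GM-CSF, at 5.17 (SE 0.20). Among the host proteins described as ligands, galectin-9 (Lgals9) rose by 1.17 (SE 0.07) and the annexins Anxa5 and Anxa1 fell, at -1.28 (SE 0.04) and -0.46 (SE 0.06). Of 24 other C-type lectins, 20 were tested at Day+7 against Day-1, 14 higher and 3 lower (median 1.31, against 43% and 42.8% of all genes), with Clec2d at 2.87 (SE 0.07), Mgl2 at 5.63 (SE 0.19) and Clec10a at 4.46 (SE 0.16). The neutrophil genes Ly6g, Camp and Ngp, which were at 0 in the median Day-1 tumor, had 2.52 to 19.9, 2.96 to 27.2 and 10.8 to 127 CPM at Day+7. Of the 9 neutrophil genes tested, 8 were higher at Day+7 and 1, Mmp9, was lower, with a median of 237 CPM at Day+7 (167 to 492) and 736 CPM at Day-1 (264 to 1979.6). The list sum had a median of 789.8 CPM at Day+7 (661 to 1372) and 785 CPM at Day-1 (346 to 1997), of which Mmp9 made up 94.2% at Day-1. Neutrophils express several of these receptors, and their part in the rise was not tested.

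In the 26 Day-1 tumors the receptors fell into 2 patterns, a division made after the values were seen and given as a description. A set of 7 (Clec4a1, Clec4a3, Clec4d, Clec4e, Clec4n, Clec5a and Clec7a) varied together from tumor to tumor. Over their 21 pairs, Pearson's r of the log2 CPM was 0.60 to 0.94 and Spearman's rho 0.62 to 0.91, with adjusted p of at most 0.00191 (permutation test, 100000 resamples, two-sided, Benjamini-Hochberg over all 36 pairs, smallest possible unadjusted p 1e-05). Leaving out the 2 tumors farthest from the median of the first gene of a pair gave r of 0.59 to 0.93, and r was 0.62 to 0.98 within CR and 0.41 to 0.91 within PR. Clec4a2 and Clec12a were correlated with each other (r = 0.83, rho = 0.78, adjusted p = 2.77e-05 for r by the permutation test, r = 0.70 without the 2 farthest tumors, 0.89 within CR and 0.68 within PR). None of the 14 pairs between the 7 and these 2 genes had an adjusted p below 0.05, with r of -0.31 to 0.37 (-0.55 to 0.30 without the 2 farthest tumors), rho of -0.42 to 0.36 and an adjusted p of at least 0.0501 for either measure (permutation test). The lowest of these belonged to negative rho of Clec4a2 with Clec4n (-0.42, adjusted p = 0.0501) and with Clec4d (-0.38, adjusted p = 0.0811, permutation test).

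**Figure D3:**
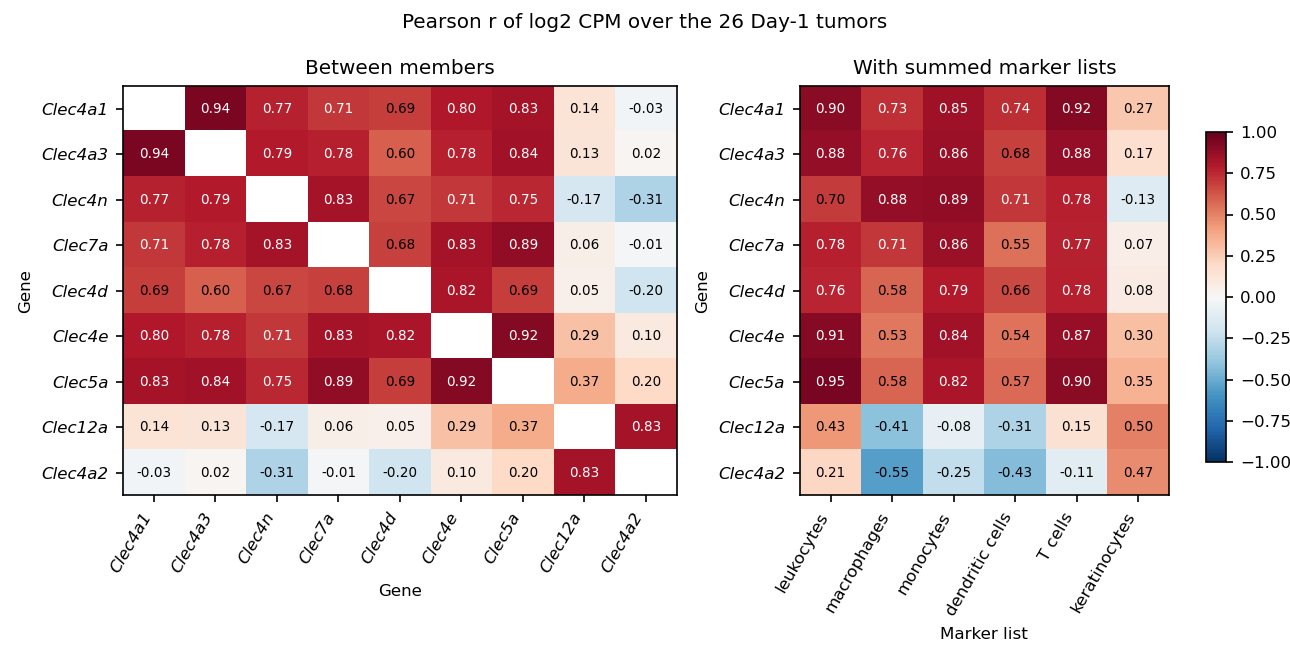
Pearson's r of log2 CPM over the 26 Day-1 tumors, between the 9 receptor genes (left) and between each gene and the summed CPM of 6 marker lists (right), red for positive and blue for negative. The block of 7 genes has r of 0.60 to 0.94, the pair Clec12a and Clec4a2 has r = 0.83, and this pair has negative r with the macrophage sum.

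**Figure D4:**
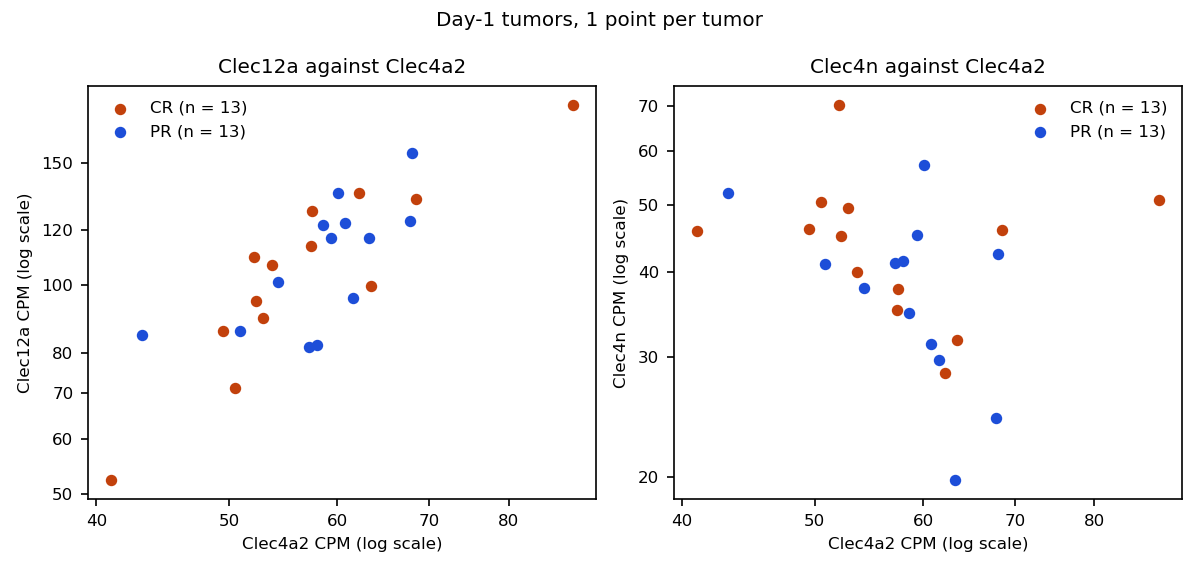
CPM of Clec12a (left) and of Clec4n (right) against Clec4a2, on log axes, with a point for each of the 26 Day-1 tumors, CR and PR in different colors. Tumors with more Clec4a2 had more Clec12a (r = 0.83), and the tumor with the most Clec4a2, 89.2 CPM, had the most Clec12a, 182 CPM, whereas Clec4n had r of -0.31 with Clec4a2.

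A similar division was seen against the marker sums, over 54 pairs of a receptor and a list, except that Clec12a also rose with the leukocyte sum. Here the 2 tumors left out were those farthest from the median of the marker sum, not of the receptor. With the macrophage sum the 7 receptors had r of 0.53 (Clec4e) to 0.88 (Clec4n), whereas Clec4a2 had r = -0.55 (rho = -0.74, adjusted p = 0.00588 for r by the permutation test, r = -0.60 without the 2 farthest tumors) and Clec12a r = -0.41 (rho = -0.53, adjusted p = 0.0495 by the permutation test, r = -0.52 without the 2 farthest). Within CR and PR, r with the macrophage sum was -0.66 and -0.54 for Clec4a2 and -0.55 and -0.31 for Clec12a. For the 7, r with this sum was 0.35 (Clec5a) to 0.79 (Clec4n) without the 2 farthest tumors. It was 0.15 (Clec5a) to 0.78 (Clec4n) within CR and 0.45 (Clec4d) to 0.93 (Clec4n) within PR. Clec4e and Clec7a were also low within CR, at 0.26 and 0.37. With the leukocyte sum the 7 had r of 0.70 to 0.95, Clec4a2 had r = 0.21 and Clec12a r = 0.43. For Clec12a the adjusted p was 0.0404 for r and 0.0705 for rho (0.38) by the permutation test. Its r with this sum was 0.56 within CR and 0.53 within PR. With the T cell sum the 7 had r of 0.77 (Clec7a) to 0.92 (Clec4a1), Clec4a2 -0.11 and Clec12a 0.15. With the monocyte sum these were 0.79 (Clec4d) to 0.89 (Clec4n), -0.25 and -0.08. With the dendritic cell sum they were 0.54 (Clec4e) to 0.74 (Clec4a1), -0.43 and -0.31. For the 7, r with the dendritic cell sum was 0.22 (Clec5a) to 0.67 (Clec4n) within CR. Within PR it was 0.41 (Clec7a) to 0.76 (Clec4n). Over all 26 tumors the 7 thus varied with the sums of several leukocyte types, and which cells expressed them was not tested. With the keratinocyte sum Clec12a had r = 0.50 (adjusted p = 0.0122 by the permutation test) and Clec4a2 r = 0.47 (adjusted p = 0.0227 by the permutation test, rho = 0.35), and the part of keratinocyte RNA in their variation was not tested. The spread did not follow this division: from the lowest to the highest Day-1 tumor the level changed 8.89-fold for Clec4a1, 8.85-fold for Clec4e, 6.14-fold for Clec7a, 4.71-fold for Clec4a3 and 3.55-fold for Clec4n, with Clec12a at 3.48-fold, Clec4d and Clec5a at 2.99-fold and Clec4a2 at 2.18-fold. The values within a tumor share its library and scaling.

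The genes most like the mean of the 9 standardized receptor levels over the 26 Day-1 tumors were Lyn (r = 0.97), Fcer1g, Fgl2, Naaa and AW112010 (r = 0.96 each). Lyn is a SRC-family kinase of leukocytes and Fcer1g the signalling chain named above. Over all 46 tumors they were Cfb, AW112010, Bst1, H2-T23 and Hcls1 (r = 0.99 each), where the points include all 3 days.

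Between CR and PR before treatment, none of the 9 genes passed the test, as was so for all but 1 of 10777 genes (0.00928%, edgeR at an FDR under 0.1). Of the 9, 7 had a positive log2 difference of CR over PR and 2, Clec4a2 and Clec12a, one close to 0. Clec4e had 2.63 to 23.3 CPM in CR tumors (median 9.11) and 2.87 to 13.1 CPM in PR tumors (median 5.42), Clec7a had 23.7 to 84.0 CPM in CR tumors (median 42.2) and 13.7 to 58.2 CPM in PR tumors (median 26.8). Clec5a had 27.5 to 62.4 CPM in CR tumors (median 40.3) and 20.9 to 50.4 CPM in PR tumors (median 30.8), and Clec4d had 10.1 to 22.1 CPM in CR tumors (median 16.6) and 7.41 to 17.1 CPM in PR tumors (median 12.5). The ranges overlapped for all 4, with 12, 11, 12 and 11 of 13 CR tumors above the PR median. The log2 differences of CR over PR were 0.65 for Clec4e (95% interval 0.16 to 1.13), 0.55 for Clec7a (0.15 to 0.95), 0.35 for Clec5a (0.11 to 0.58) and 0.38 for Clec4d (0.12 to 0.64). Each had an unadjusted p under 0.05, as 1885 of the 10777 genes did, and an adjusted p of 0.157 to 0.182 by edgeR.

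The other 5 receptors had an unadjusted p of 0.05 or more between CR and PR at Day-1. Clec4a1 was at 0.49 (95% interval 0.00 to 0.99), Clec4a3 at 0.34 (-0.01 to 0.70) and Clec4n at 0.21 (-0.08 to 0.50), while Clec4a2 at -0.03 (-0.20 to 0.15) and Clec12a at -0.02 (-0.31 to 0.26) had intervals centred near 0. The leukocyte, macrophage and T cell sums had higher medians in CR. In CR and PR tumors these were 2168 and 1879 CPM for the leukocyte genes (1816 to 2891 and 1599 to 2500.5). They were 4061 and 3603 CPM for the macrophage genes (3308 to 5898 and 2249 to 4394). For the T cell genes they were 116 and 75.1 CPM (60.2 to 212 and 40.2 to 159). The neutrophil sum, mostly Mmp9, had a lower median in CR, 694 and 809 CPM (346 to 1305 and 539 to 1997). Of the 4 neutrophil genes tested, 3 had a positive log2 difference of CR over PR and 1 a negative one, and none passed. The sums for endothelium (137 and 144 CPM) and for mesothelium and tumor (359.8 and 429 CPM) also had lower medians in CR. Scaled to the leukocyte genes, with a median over all genes of -0.21, Clec7a, Clec4e and Clec5a were higher in CR and Clec4a2 and Clec12a lower, 5 of 9 passing against 52.2% of all genes. Scaled to the macrophage genes, with a median over all genes of -0.25, Clec4e and Clec7a passed, 2 of 9 against 45.4%. The count also depended on the tool, with 2 of 9 passing in DESeq2 (Clec4d and Clec5a, against 4.33% of genes) and 5 of 9 in limma-voom with quality weights (Clec4a1, Clec4d, Clec4e, Clec5a and Clec7a, against 11% of genes). Leaving out 1 tumor in edgeR, 4 of 9 passed without CR tumor 3 (against 4.13% of genes), 4 without PR tumor 7 (8.07%), 3 without PR tumor 12 (3.56%) and 1 without PR tumor 9 (4.07%).

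After CY the receptors showed no difference between CR and PR that passed. At Day+3 the 9 log2 differences of CR over PR ran from -0.14 (Clec4e) to 0.11 (Clec4a3), with 0 of 9 and 0% of 11839 genes passing in edgeR, 256 genes at an unadjusted p under 0.05, none of them a receptor, and 4 genes in DESeq2, none of them a receptor. The intervals excluded a 2-fold difference for each of the 9, the widest being that of Clec7a (-0.76 to 0.71). At Day+7, 0 of 9 and 0% of 11727 genes passed in edgeR, 333 genes had an unadjusted p under 0.05, none of them a receptor, and 6 genes passed in DESeq2, none of them a receptor. Clec4d had 57.5, 35.0, 84.2, 52.2 and 38.5 CPM in CR tumors, against 19.8, 28, 65.2, 44.8 and 34.1 CPM in PR tumors at Day+7. Clec4e had 72.8, 25.5, 77.5, 42.5 and 43.9 CPM in CR tumors, against 16.2, 25.6, 61.2, 46.2 and 30.7 CPM in PR tumors. For both the groups overlapped, and the log2 differences of 0.48 (95% interval -0.21 to 1.16) and 0.54 (-0.26 to 1.34) had an adjusted p of 0.967 by edgeR. Clec7a had 1349.7, 988, 1442, 584 and 847 CPM in CR tumors, against 961, 921, 1182, 1095 and 1383 CPM in PR tumors, which also overlapped (-0.09, 95% interval -0.56 to 0.38).

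Whether CR and PR tumors were further apart or closer after CY than before it was tested next. At Day+3 no receptor and 0% of 13194 genes passed (461 genes at an unadjusted p under 0.05, none of them a receptor, and 3 genes in DESeq2), with estimates of -0.80 (Clec4e) to -0.05 (Clec12a). At Day+7, 0 of 9 receptors passed against 0.00758% of 13194 genes, with estimates of -0.64 (Clec7a) to 0.09 (Clec4d), and no receptor had an unadjusted p under 0.05, against 1521 genes. DESeq2 called 37 genes there, none of them a receptor. All these estimates use the same Day-1 tumors.

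**Figure D5:**
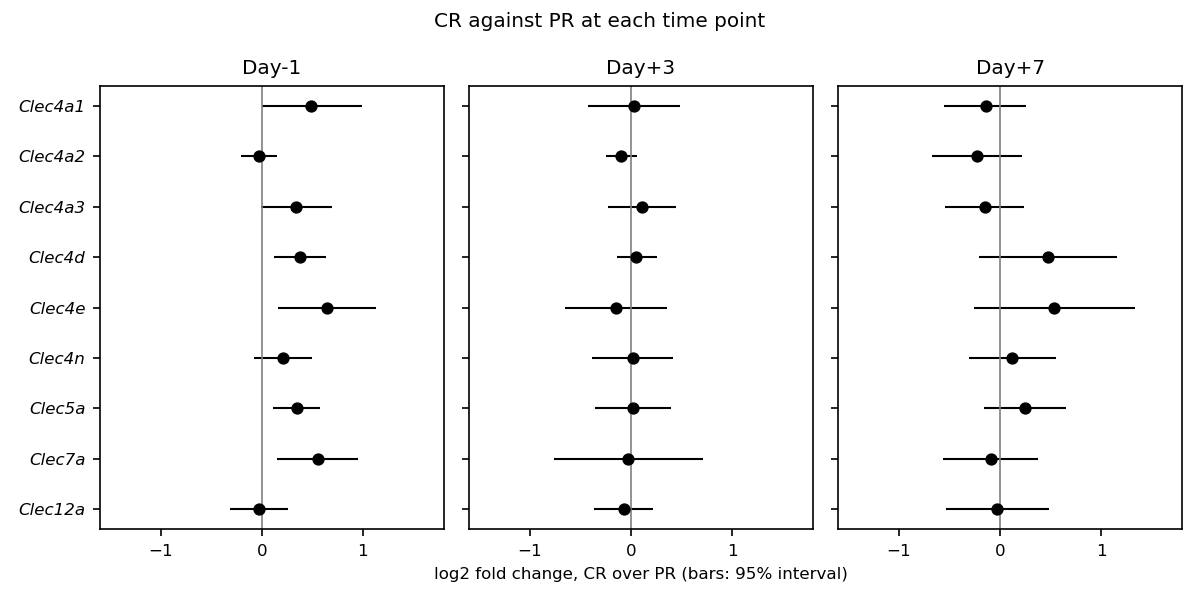
Log2 fold change of CR over PR for each receptor gene (x axis) at Day-1, Day+3 and Day+7, with 95% intervals from the edgeR fit. At Day-1 the intervals of Clec4d, Clec4e, Clec5a and Clec7a lie above 0, and at Day+3 and Day+7 all 9 cross 0.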

How the data were processed

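RNA sequencing reads were pseudoaligned with kallisto to GRCm38.p6 per the submitters' processing notes, and the authors deposited 1 table of whole-number counts per gene. The kallisto version and the way transcripts were summed are not given in the sources used here. The table covers gene names in alphabetical order as far as Pax7, so totals are partial and later symbols were not analysed. Counts were TMM-scaled, filtered with filterByExpr and tested with the quasi-likelihood test of edgeR 4.0.16 (R 4.3.3; Benjamini-Hochberg FDR under 0.1, prior count 2). CR and PR were compared within each day, and all 46 tumors entered 1 model for the days and for the change in the difference between CR and PR. Standard errors are the log2 fold change divided by the root of F, and 95% intervals use t quantiles. Permutation tests used SciPy 1.17.1 (Python 3.11.15). Alternatives were DESeq2 1.42.0 and its size factors, limma 3.58.1 (voom), other filters, an FDR of 0.05, scaling to leukocyte or macrophage genes, and leaving out tumors with over 10 CPM of Krt5 or 1 tumor at a time. The 9 genes, the lists and the tests were chosen with earlier results of these data known. Named pathway genes are the 3 of a list with the smallest p. Like genes are the 5 with the highest r. The code was tested on simulated data. No pair of libraries agreed within sampling noise (1035 pairs, 10923 genes, lowest chi-square per degree of freedom 3.42). Tumors came from different mice, and p-values measure the spread between them.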

Additional observations from a re-analysis of the deposited data

Results flagged for a closer look

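Each of the 9 genes was examined in each group of 5 tumors, which gave 36 sets of values. Of these sets, 2 held a tumor far from the others, where chance gives about 1 in 20 for a single set. The sets share tumors and are not independent. Clec4a1 was at 119.9 CPM in CR tumor 4 at Day+7, against 204 to 222 CPM in the other 4. Clec7a was at 80.7 CPM in CR tumor 4 at Day+3, against 40.3 to 52.0 CPM in the other 4, with a gap of 0.711 of the range at a critical value of 0.71.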

How the results depend on the processing

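No paired analysis was possible because the replicate numbers only follow the order of listing and each tumor came from a different mouse. The 3510 values under alternatives were log2 fold changes of the receptors and, for each fit, the number of receptors passing. Of these, 3342 kept their direction and side of the threshold or, for a number of receptors, stayed close to the main one. Such a number counted receptors passing in either direction, so it did not register a change of direction. Another 38 were labelled as passing newly, 8 of them numbers of receptors passing between CR and PR at Day-1. The other changes were 3 that no longer passed and 127 that changed sign, and the causes were not tested. The number of receptors passing between CR and PR at Day-1 was 2 in DESeq2 (4.33% of genes), 5 in limma-voom (11%), 5 when scaled to leukocyte genes (52.2%) and 2 when scaled to macrophage genes (45.4%), and 0 to 4 with 1 tumor left out (8.07% of genes without PR tumor 7). The 3 calls lost were Clec5a at Day+3 without tumors with Krt5 (-0.19), and under leukocyte scaling Clec4a2 at Day+3 (0.09) and Clec5a between Day+3 and Day+7 (0.06). Without tumors with Krt5, Clec12a (0.26) and Clec4a1 (0.41) passed at Day+3, and Clec4a1 passed in limma-voom (0.45).

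Relative to leukocyte and macrophage genes, the log2 changes at Day+7 over Day-1 were -0.65 and -0.75 for Clec12a, -0.53 and -0.63 for Clec4a2, -0.33 and -0.42 for Clec4d and -0.48 and -0.58 for Clec5a. At Day+3 over Day-1, Clec12a was at -0.19 relative to leukocyte genes, and relative to macrophage genes Clec12a was at -1.51, Clec4a1 -1.22, Clec4a2 -1.22, Clec4a3 -0.84, Clec4d -0.89 and Clec7a -0.95. At Day+7 over Day+3 relative to leukocyte genes, Clec12a was at -0.46, Clec4a2 -0.62, Clec4d -0.72 and Clec4n -0.35.

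Clec12a at Day+3 over Day-1, which did not pass in the main fit, also changed sign in other settings. The remaining changes of sign were in differences of CR over PR, or their changes with time, that did not pass. At Day-1 Clec4n was at -0.007 with macrophage scaling. At Day+3, with macrophage scaling, Clec4d was at -0.004, Clec4n -0.01 and Clec5a -0.013, and Clec7a was at 0.041 in limma-voom and 0.048 without tumors with Krt5. At Day+7, leaving out tumors with Krt5 kept only 3 CR and 2 PR tumors. In these, Clec12a was at 0.148, Clec4a1 0.319, Clec4a2 0.166, Clec4a3 0.293, Clec4n -0.149 and Clec7a 0.202. With all Day+7 tumors, Clec12a was at 0.062 in limma-voom, and with leukocyte and macrophage scaling at 0.073 and 0.097, and Clec7a at 0.018 and 0.02.

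The change in the difference of CR and PR at Day+3 was 0.053 for Clec12a in limma-voom, and with leukocyte and macrophage scaling 0.13 and 0.101 for Clec12a and 0.115 and 0.09 for Clec4a2. At Day+7 it was for Clec12a 0.008 with DESeq2 size factors, 0.009 in DESeq2, 0.153 in limma-voom and 0.002 with no filter. Without tumors with Krt5, which kept 3 CR and 2 PR tumors at Day+7, it was 0.21 for Clec12a and 0.23 for Clec4a2. With leukocyte and macrophage scaling it was 0.312 and 0.35 for Clec12a, 0.146 and 0.146 for Clec4a2, 0.233 and 0.191 for Clec4e, 0.282 and 0.226 for Clec4n and 0.26 and 0.212 for Clec5a.

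With 1 tumor left out, CR over PR at Day-1 was -0.107 to 0.039 for Clec12a and -0.092 to 0.01 for Clec4a2. At Day+3 it was -0.165 to 0.007 for Clec12a, -0.094 to 0.219 for Clec4a1, -0.12 to 0.151 for Clec4n, -0.071 to 0.198 for Clec5a and -0.232 to 0.289 for Clec7a. At Day+7 it was -0.152 to 0.143 for Clec12a, -0.014 to 0.284 for Clec4n and -0.225 to 0.058 for Clec7a. Day+3 over Day-1 was -0.038 to 0.063 for Clec12a. The change in the difference was -0.149 to 0.025 for Clec12a at Day+3, and at Day+7 -0.127 to 0.172 for Clec12a, -0.119 to 0.373 for Clec4d, -0.294 to 0.17 for Clec4e, -0.23 to 0.077 for Clec4n and -0.278 to 0.027 for Clec5a.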
